A study of Mus musculus with 8 samples.

Results

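The levels of 10 genes of the death ligand and BCL2 families were read in CD8 T cells of mouse liver and spleen. They were taken by name from the expression matrices and make up 10 of the 31053 genes listed there. All 10 were found. They are the death ligands Fasl and Tnfsf10, the receptor Fas, the prosurvival genes Bcl2, Bcl2l1, Mcl1, Bcl2a1b and Bcl2a1d, and the BH3-only genes Bcl2l11 and Bbc3.

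The study used droplet single-cell RNA sequencing from the 5′ end of transcripts, with the T cell receptor sequenced from the same cells. The groups were liver CD8 T cells of EomesTG mice, liver CD8 T cells of WT mice, spleen CD8 T cells of EomesTG mice and spleen CD8 T cells of WT mice. The EomesTG mice carried on both alleles a transgene of Eomes, which encodes a T-box factor found in effector and memory CD8 T cells (EomesTg/Tg). The WT mice were C57BL/6, which is also the strain background given for the EomesTG mice. For either strain, 3 mice were combined ahead of the sort, and each group is 1 expression library with its own receptor library. The liver and spleen of a strain come from the same pool, so they are not replicates, and which mouse a cell or clone came from is not known. Ages, treatments and the promoter that drives the transgene are not given in the sources used here, and transgene transcripts were not told apart from those of the Eomes gene itself.

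The purpose named by the study's title concerns PD-1, the inhibitory receptor encoded by Pdcd1, and the oligoclonal expansion of liver CD8 T cells that depends on Eomes. Each gene was therefore read per library, in cells with and without a Pdcd1 transcript, and by the size of the receptor clone.

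Fas ligand and TRAIL, encoded by Fasl and Tnfsf10, are membrane proteins with which cytotoxic lymphocytes trigger death receptors on target cells, and Fas is the receptor through which activated T cells can themselves be killed. Inside the cell, BCL2, BCL-xL (Bcl2l1), MCL1 and A1 (the Bcl2a1 genes) hold back the permeabilisation of the mitochondrial outer membrane. The BH3-only proteins BIM (Bcl2l11) and PUMA (Bbc3) bind them and promote it, BIM being the main killer of T cells at the end of a response and PUMA a p53 target. In CD8 T cells, BCL2 is kept up by interleukin 7 and interleukin 15, while A1 is induced through the antigen receptor.

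After filtering, 4505, 3114, 5719 and 5318 cells remained in EomesTG liver, WT liver, EomesTG spleen and WT spleen, with 18938523 to 28727875 unique molecular identifiers (UMIs, counts of single captured transcripts) a library. The median cell held 3922 UMIs in EomesTG liver and 4753 to 5478 in the other libraries. Eomes stood at 182, 84.5, 134 and 86.8 UMIs per 1000000 UMIs (CPM) in that order. Pdcd1 stood at 460.4, 23.2, 10.6 and 6.79 CPM, and at least 1 Pdcd1 UMI was seen in 61.9%, 8.12%, 2.89% and 2.76% of cells. All 6 CD8 T cell markers were detected in every library, and Cd4 was at 0, 0, 0.0707 and 0.0348 CPM. Summed B cell, myeloid, natural killer and hepatocyte markers reached at most 28.9, 9.08, 7.45 and 5.12 CPM, and the natural killer genes Ncr1 and Klrb1b were at 0 in EomesTG spleen. Gamma-delta T cell markers summed to 10.2, 13.8, 5.77 and 5.08 CPM in the same order of libraries. Barcodes with B cell or myeloid markers, or without Cd3, had been left out first. The low B cell and myeloid sums and the detection of Cd3 genes thus follow in part from the filter. The libraries also differed in the stress gene Hspa1a, at 1886, 532, 204 and 2.85 CPM, and its part in the results was not tested. Between 23 and 57 barcodes were shared by any pair of libraries.

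Each level below is the sum of a gene's UMIs over the cells named, per 1000000 UMIs of those cells, with an exact 95% Poisson interval. A ratio of such levels is given on the log2 scale with an exact 95% interval. With 1 library a group there is no test, and these intervals cover the error of counting only, not the differences between mice. A gene is called higher or lower where the levels differ by at least 1.5-fold and the interval lies past equality. Fewer cells of a type and less RNA per cell cannot be told apart in such sums. Levels were not compared between genes, since capture at the 5′ end differs between them.

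Of the 10 genes, the death ligand Fasl differed most between liver and spleen. Fasl (chr1:161780689-161788495, minus strand, mm10) was at 156 CPM in EomesTG liver (interval 151 to 162), 68.2 in WT liver (64.5 to 72.0), 3.82 in EomesTG spleen (3.13 to 4.61) and 8.63 in WT spleen (7.59 to 9.78). Liver was thus above spleen in both strains, by 5.35 on the log2 scale in EomesTG mice (40.9-fold) and by 2.98 in WT mice (7.90-fold). Thinned to 2000 UMIs a cell, 27.1% of EomesTG liver, 13.8% of WT liver, 0.748% of EomesTG spleen and 2.25% of WT spleen cells held a Fasl UMI. Cells under 2000 UMIs, being 574, 184, 368 and 243 in that order, were left out of the thinned shares. Over all cells before thinning the shares were 41.5%, 24.4%, 1.57% and 3.93%.

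Tnfsf10 (chr3:27317028-27342427, plus strand) was also higher in the livers, at 43.1 CPM in EomesTG liver, 23.3 in WT liver, 12.8 in EomesTG spleen and 12.1 in WT spleen. The 2 spleen intervals overlapped, at 11.6 to 14.2 and 10.9 to 13.5 CPM, so those neighbours did not differ beyond counting error. Fas (chr19:34290666-34327772, plus strand) spanned a narrower range across the libraries, at 27.8, 27.4, 30.7 and 23.8 CPM in the same order. WT spleen was the lowest for Fas, and the intervals of the livers overlapped each other.

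Among the prosurvival genes, Bcl2 (chr1:106538178-106714274, minus strand) was at 457 CPM in EomesTG liver (448 to 466), 207 in WT liver (200.3 to 213), 231 in EomesTG spleen (225 to 236) and 182 in WT spleen (177 to 187). EomesTG liver stood apart from the other 3 libraries, which lay within 182 to 231 CPM. A Bcl2 UMI was seen in 56.2%, 31.8%, 33.0% and 27.8% of cells thinned to 2000 UMIs. The antisense gene D630008O14Rik, which lies across Bcl2, held at most 1.27 CPM. Mcl1 (chr3:95658788-95663176, plus strand), the family member that T cells need throughout life, spanned 77.9 to 108 CPM. Bcl2l1 (chr2:152780668-152831728, minus strand) was at 21.4 CPM in EomesTG liver, 20.2 in WT liver, 9.55 in EomesTG spleen and 13.5 in WT spleen. The 2 livers did not differ for Bcl2l1 beyond counting error, and both lay above both spleens.

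Bcl2a1b (chr9:89199209-89207827, plus strand) and Bcl2a1d (chr9:88723285-88731914, minus strand) are copies of the A1 gene. Bcl2a1b was at 119.6, 68.4, 28.7 and 30.1 CPM in EomesTG liver, WT liver, EomesTG spleen and WT spleen, and Bcl2a1d at 72.4, 29.5, 4.78 and 6.82 CPM. Both had the order EomesTG liver, then WT liver, then the spleens. Their transcripts are alike in 810 of 817 aligned bases (99.1%), and 61.6% of the 90-base stretches of Bcl2a1d and 36.1% of those of Bcl2a1b occur in another copy. How their reads were divided is therefore uncertain, and the split between them is not read here. The copy Bcl2a1a held 0, 3, 0 and 1 UMIs. Of genes that overlap the copies, the antisense Gm10634 at Bcl2a1d held at most 1.17 CPM and Gm29094, on the strand of Bcl2a1b, at most 0.195.

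The likeness of the copies reaches past their transcripts. Their upstream stretches are shown because they cannot be told apart over most of their length, with capitals for the bases that differ or are absent in the other copy. They lie before the annotated gene starts, are cut to end at matching bases, are written 5′ to 3′ on the strand of the gene, and come from the RefSeq promoter table of build GRCm38.p6. The Bcl2a1b stretch is chr9:89199023-89199164 on the plus strand and the Bcl2a1d stretch is chr9:88731915-88732050 on the minus strand.
Bcl2a1b: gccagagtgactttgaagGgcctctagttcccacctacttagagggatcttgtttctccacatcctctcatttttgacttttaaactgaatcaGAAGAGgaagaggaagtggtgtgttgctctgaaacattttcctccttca
Bcl2a1d: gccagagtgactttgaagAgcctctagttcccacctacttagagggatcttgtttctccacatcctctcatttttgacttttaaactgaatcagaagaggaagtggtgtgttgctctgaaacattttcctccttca
Over the aligned upstream windows, 198 of 200 bases were identical, gaps not counted.

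Among the BH3-only genes, Bcl2l11 (chr2:128126038-128162547, plus strand) was at 89.9 CPM in EomesTG liver (85.8 to 94.1), 44.7 in WT liver (41.7 to 47.8), 21.1 in EomesTG spleen (19.5 to 22.9) and 26.0 in WT spleen (24.2 to 27.9). None of the 4 intervals overlapped, and the livers were the higher libraries. Bbc3 (chr7:16308393-16318205, plus strand) was not higher in the livers, with 27.2 CPM in EomesTG liver, 32.6 in WT liver, 32.4 in EomesTG spleen and 42.9 in WT spleen. WT spleen was the highest library for Bbc3, and the intervals of WT liver and EomesTG spleen overlapped.

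The stretch before the Bcl2l11 start is shown because FOXO factors, which bind forkhead motifs, are known to drive Bcl2l11 when interleukin signals are withdrawn. It is chr2:128125788-128126037 on the plus strand, from the same RefSeq table, and the capitals mark the reverse complement of the forkhead core TGTTTAC.
Bcl2l11: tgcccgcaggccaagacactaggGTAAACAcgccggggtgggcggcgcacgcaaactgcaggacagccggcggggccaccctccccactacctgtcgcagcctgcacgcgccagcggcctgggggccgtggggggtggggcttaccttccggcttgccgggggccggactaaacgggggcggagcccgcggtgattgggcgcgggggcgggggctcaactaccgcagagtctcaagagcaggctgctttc
Windows of 300 bases around the gene starts were searched on both strands for TGTTTAC and for the T-box core GGTGTGA. Over all 32851 windows, 3.65% held TGTTTAC and 3.98% held GGTGTGA. Of the 15 windows of the 10 genes, 3 held 1 of them, namely TGTTTAC for Bcl2l11 at position -227 and for Bbc3 at -167, counted from the start, and GGTGTGA for Bcl2l1 at -140. A match is a description of the letters and not a bound site.

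**Figure D1:**
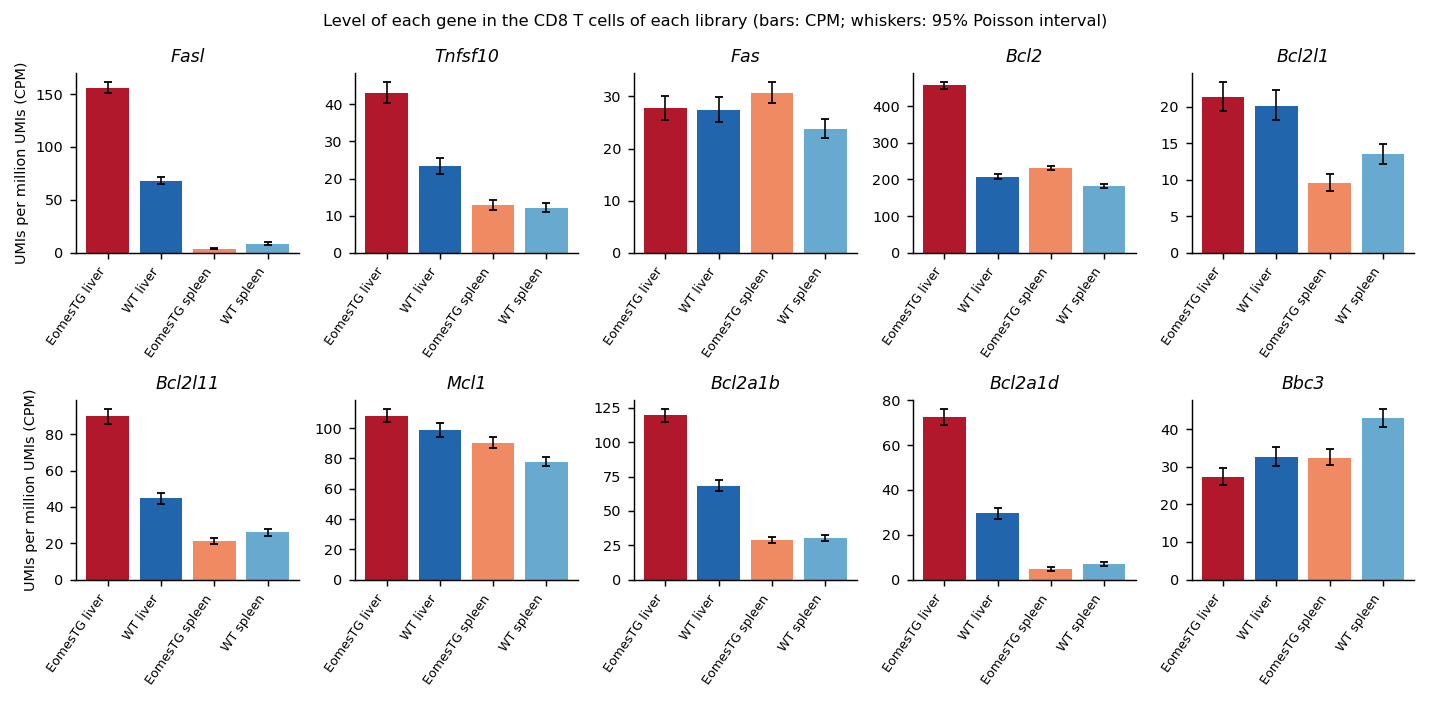
Level of each of the 10 genes in CD8 T cells of each library, in UMIs per 1000000 UMIs (bars), with the 95% Poisson interval (whiskers). Fasl, Tnfsf10, Bcl2, Bcl2l11, Bcl2a1b and Bcl2a1d are highest in EomesTG liver, and Fasl lies at 3.82 CPM in EomesTG spleen, against 8.63 in WT spleen.

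In liver, the comparison of strains found 6 of the 10 genes higher and 0 lower in EomesTG than in WT cells. Over all 10796 genes tested, 13.6% were called higher and 6.79% lower. The median log2 ratio was 0.85 over the 10 genes and 0.12 over all genes tested. The 6 genes were Bcl2a1d with 1.30 (1.15 to 1.44), Fasl with 1.20 (1.10 to 1.29), Bcl2 with 1.14 (1.09 to 1.20), Bcl2l11 with 1.01 (0.89 to 1.13), Tnfsf10 with 0.89 (0.72 to 1.05) and Bcl2a1b with 0.81 (0.71 to 0.90). They include both ligands, prosurvival genes and the BH3-only gene Bcl2l11. Mcl1, Bcl2l1, Fas and Bbc3 had log2 ratios of 0.13, 0.08, 0.02 and -0.26.

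These values depended on how clones were counted. When each clone was counted once, whatever its number of cells, 0 of the 10 genes reached 1.5-fold, with log2 ratios of 0.57 for Bcl2a1d, 0.42 for Bcl2, 0.40 for Tnfsf10, 0.37 for Fasl, 0.35 for Bcl2a1b and 0.12 for Bcl2l11. Of the clones so counted, 884 of 1024 in EomesTG liver and 1929 of 2012 in WT liver were single cells, so this setting weighs mostly single cells. With only the 3 largest clones left out, Fasl had 1.09, Bcl2 0.997 and Bcl2l11 0.84.

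In spleen, 0 of the 10 genes were called higher and 1 was called lower, against 2.69% and 4.96% of the 10772 genes tested. The lower one was Fasl, with a log2 ratio of -1.18 (-1.52 to -0.84). Bcl2a1d had -0.51 and Bcl2l11 -0.30, with intervals of -0.84 to -0.19 and -0.46 to -0.14, while Bcl2 had 0.34 (0.29 to 0.39). The copy Bcl2a1b had -0.07 (-0.21 to 0.07). Among cells with at least 3 Ccl5 UMIs, which were 23.7% of EomesTG and 42.9% of WT spleen cells, the Fasl ratio was -0.55 and no longer past 1.5-fold, and the Bcl2a1d ratio turned to 0.19 (-0.25 to 0.62). The strain ratio of Fasl was 2.37 higher on the log2 scale in liver than in spleen (2.03 to 2.71), that of Bcl2a1d 1.81 higher (1.46 to 2.16), that of Bcl2l11 1.31 higher (1.11 to 1.504) and that of Bcl2 0.80 higher (0.73 to 0.88).

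Between the tissues, 7 of the 10 genes were higher and 0 lower in liver than in spleen of EomesTG mice, where 23.6% of 10939 genes were called higher and 9.69% lower. The 10 genes had a median log2 ratio of 1.45, against 0.19 over all genes. Bcl2a1d was 15.2-fold higher in EomesTG liver, Bcl2l11 4.26-fold, Bcl2a1b 4.17-fold, Tnfsf10 3.36-fold, Bcl2l1 2.24-fold and Bcl2 1.98-fold. With each clone counted once, Bcl2 had a log2 ratio of 0.56, under 1.5-fold, and Tnfsf10 1.11, against 1.75. Among cells with at least 3 Ccl5 UMIs, which were 86.6% of EomesTG liver and 23.7% of EomesTG spleen cells, Fasl had 3.86, against 5.35. In WT mice, 5 genes were higher and 0 lower in liver, against 11.4% and 3.35% of 10748 genes. These 5 were Fasl, Bcl2a1d (4.33-fold), Bcl2a1b (2.27-fold), Tnfsf10 (1.92-fold) and Bcl2l11 (1.72-fold). Bcl2 was 1.14-fold and Bcl2l1 1.497-fold higher in WT liver, the second just under the threshold. Bbc3 had log2 ratios of -0.25 in EomesTG and -0.40 in WT mice.

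Levels were next split by Pdcd1, with 1 UMI as the gate, so a cell counted as Pdcd1-zero may still express the gene. In EomesTG liver, 2787 cells held a Pdcd1 UMI, with a median of 3794 UMIs a cell, and 1718 held none, with a median of 4286. Of the 10 genes, 5 were higher and 2 lower in the Pdcd1-positive cells, against 22.4% and 8.03% of the 10011 genes tested. The median log2 ratio was 0.62 over the 10 genes and 0.27 over all genes tested. Fasl was at 202 CPM in Pdcd1-positive and 81.5 in Pdcd1-zero cells (log2 ratio 1.31, 1.18 to 1.44), and Tnfsf10 at 51.3 and 30.0 (0.77, 0.56 to 0.995). Bcl2a1d was at 99.8 and 28.2 CPM (1.82), Bcl2a1b at 154 and 64.8 (1.24) and Bcl2l11 at 112 and 54.0 (1.05, 0.90 to 1.21). The ligands, the A1 copies and Bcl2l11 thus stood together on the Pdcd1-positive side. Fas, at 22.6 and 36.2 CPM (-0.68), and Bbc3, at 21.6 and 36.4 (-0.75), were lower there, though under 1.5-fold with each clone counted once (-0.36 and -0.55). Tnfsf10 was under 1.5-fold, at 0.49, when the cells were scaled to the median gene. Bcl2 was at 512 CPM in Pdcd1-positive and 368 in Pdcd1-zero cells, a log2 ratio of 0.47 (0.41 to 0.54) that stayed under 1.5-fold.

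In WT liver, 253 cells held a Pdcd1 UMI and 2861 held none, with medians of 6284 and 5415 UMIs. There 2 of the 10 genes were higher and 3 lower in Pdcd1-positive cells, against 13.1% and 4.55% of the 9717 genes tested. Bcl2 was at 77.2 CPM in Pdcd1-positive cells (66.0 to 89.8) and 224 in Pdcd1-zero cells (217 to 231), a log2 ratio of -1.53 (-1.77 to -1.31). Bcl2l11 was at 30.1 and 46.6 CPM (-0.63, -1.01 to -0.26), and Bbc3 at 10.96 and 35.5 (-1.69, -2.35 to -1.11). The Bcl2l11 value came under 1.5-fold in several recomputations, for example -0.44 in cells thinned to 2000 UMIs and -0.53 without the 3 largest clones. The Bbc3 value was -0.74 in the thinned cells, with an interval that reached equality. The A1 copies were higher as in EomesTG liver, with 1.46 for Bcl2a1d and 1.07 for Bcl2a1b. The ligands did not separate by the gate, with Fasl at 64.9 CPM in Pdcd1-positive and 68.6 in Pdcd1-zero cells (-0.08, -0.34 to 0.17) and Tnfsf10 at 22.8 and 23.4 (-0.04, -0.49 to 0.39).

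The Pdcd1 ratio of Bcl2 was thus 2.01 higher on the log2 scale in EomesTG than in WT liver (1.78 to 2.24), that of Bcl2l11 1.68 higher (1.29 to 2.08), that of Fasl 1.39 higher (1.11 to 1.67) and that of Tnfsf10 0.81 higher (0.33 to 1.29). For Bcl2a1b the difference was 0.17 (-0.06 to 0.41). Within Pdcd1-positive liver cells alone, Bcl2 was 6.63-fold and Bcl2l11 3.72-fold higher in EomesTG than in WT mice. Fasl was 3.12-fold, Tnfsf10 2.24-fold and Bbc3 1.97-fold higher there, whereas Mcl1 and Bcl2l1 were 1.25-fold and 1.23-fold higher.

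Few spleen cells held a Pdcd1 UMI, namely 165 in EomesTG and 147 in WT mice. In EomesTG spleen 4 genes were higher and 1 lower in these cells, against 14.2% and 3.25% of 9882 genes. In WT spleen 3 were higher and 2 lower, against 15.2% and 3.47% of 9992 genes. Fasl was at 28.2 CPM in Pdcd1-positive and 2.97 in Pdcd1-zero cells of EomesTG spleen, and at 19.1 and 8.22 in WT spleen. Bcl2a1d was at 41.8 and 3.48 CPM in EomesTG spleen and at 29.2 and 5.94 in WT spleen. Bcl2 was at 157 and 233 CPM in EomesTG spleen (-0.57) and at 83.8 and 186 in WT spleen (-1.15). Spleen cells of both strains therefore had the lower Bcl2 level on the Pdcd1-positive side, the sign seen in WT liver.

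**Figure D2:**
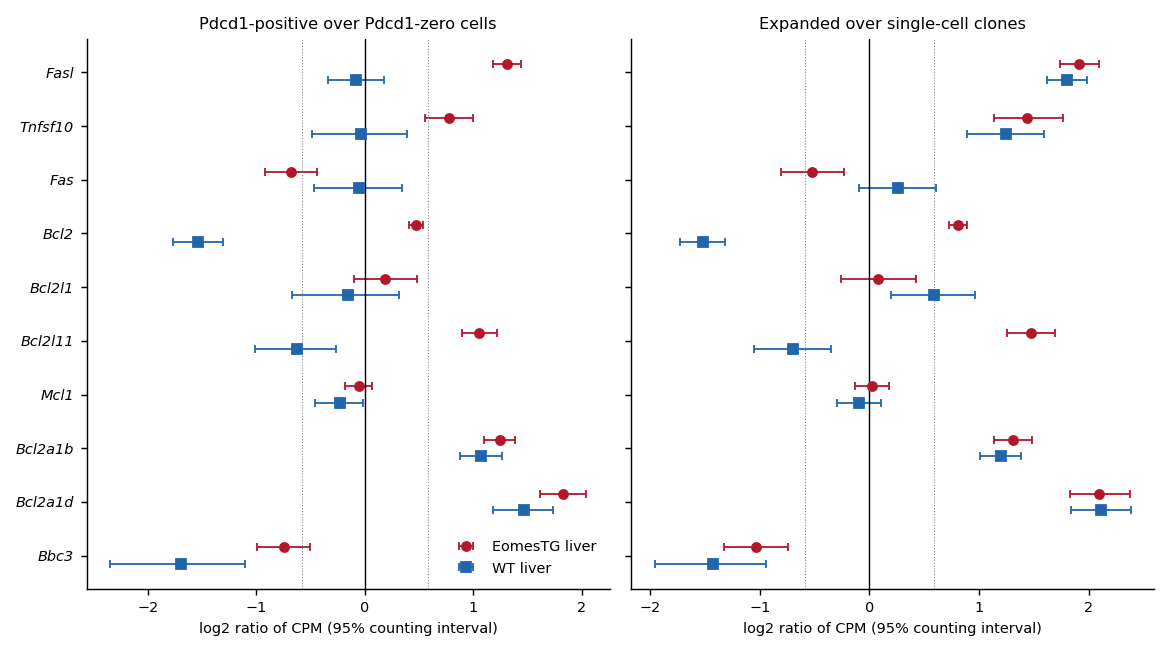
Log2 ratio of each gene in liver for Pdcd1-positive over Pdcd1-zero cells and for expanded over single-cell clones, in EomesTG (circles) and WT (squares) mice, with 95% counting intervals. Bcl2 and Bcl2l11 lie on opposite sides of 0 in the 2 strains in both panels, at 0.81 and 1.47 in EomesTG and at -1.52 and -0.69 in WT liver for expanded clones.

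Clone size gave the other view. Cells with the same paired receptor chains were taken as a clone, and clones of at least 2 cells as expanded. Expanded clones held 2369 cells in EomesTG liver, 454 in WT liver, 132 in EomesTG spleen and 152 in WT spleen, and 884, 1929, 4025 and 3827 cells were single. In EomesTG liver the median depth was 3846 UMIs in expanded and 5692 in single cells, and in WT liver 4760 and 6068.

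In EomesTG liver 6 of the 10 genes were higher and 1 lower in expanded than in single cells, against 28.8% and 7.99% of the 9667 genes tested. The median log2 ratio was 1.06 over the 10 genes and 0.34 over all genes tested. In WT liver 5 were higher and 3 lower, against 19.2% and 6.57% of the 9420 genes tested, with medians of 0.43 and 0.24.

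The ligands and A1 copies were higher in expanded cells of both strains. Fasl was at 208 CPM in expanded and 55.1 in single cells of EomesTG liver (log2 ratio 1.91), and at 156 and 44.8 in WT liver (1.80). Tnfsf10 was at 52.9 and 19.5 CPM in EomesTG liver (1.44) and at 38.6 and 16.3 in WT liver (1.25). Bcl2a1d was at 102 and 23.9 CPM in EomesTG liver (2.10) and at 79.7 and 18.4 in WT liver (2.11), and Bcl2a1b had ratios of 1.31 and 1.20. Between the strains these ratios differed by 0.11 for Fasl (-0.14 to 0.37), 0.20 for Tnfsf10 (-0.26 to 0.65), 0.11 for Bcl2a1b (-0.14 to 0.36) and -0.01 for Bcl2a1d (-0.39 to 0.36), all with intervals that span 0. The p53 target Bbc3 was lower in expanded cells of both, at 18.9 and 38.7 CPM in EomesTG liver (-1.03) and 13.5 and 36.3 in WT liver (-1.43). Expanded and single cells also differed in Ccl5, at 37917 and 7890 CPM in EomesTG liver and 22297 and 6097 in WT liver. Among cells with at least 3 Ccl5 UMIs, EomesTG liver had 0.98 for Fasl, 0.80 for Tnfsf10, 1.33 for Bcl2a1d, 0.83 for Bcl2a1b and -0.66 for Bbc3. WT liver had 1.21 for Fasl and 0.82 for Tnfsf10.

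Bcl2 and Bcl2l11, which encode BCL2 and its antagonist BIM, went opposite ways in the 2 strains. Bcl2 was at 502 CPM in expanded cells of EomesTG liver (489 to 516) and 287 in single cells (272 to 302), a log2 ratio of 0.81 (0.72 to 0.89). In WT liver it was at 80.1 CPM in expanded cells (69.8 to 91.4) and 229 in single cells (221 to 238), a ratio of -1.52 (-1.72 to -1.32). Expanded WT cells were the low group, and expanded EomesTG cells the high one. Bcl2l11 was at 108 and 39.1 CPM in EomesTG liver (1.47, 1.25 to 1.69) and at 28.4 and 45.9 in WT liver (-0.69, -1.05 to -0.35). The difference between the strains in these ratios was 2.33 for Bcl2 (2.11 to 2.54) and 2.16 for Bcl2l11 (1.76 to 2.57).

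Both signs were kept for Bcl2 and for Bcl2l11 in each of the 19 recomputations in each liver. The Bcl2 ratio in EomesTG liver came down to 0.46 when the libraries were scaled to the median gene, which lay at 0.34, and was 0.56 with each clone counted once, both under 1.5-fold. It was 0.73 without the 3 largest clones. The WT liver ratio of Bcl2l11 came under 1.5-fold in 5 of the recomputations, between -0.58 and -0.52, and reached -0.97 under another scaling.

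Mcl1, Bcl2l1 and Fas differed less between expanded and single cells. Mcl1 had log2 ratios of 0.02 in EomesTG and -0.10 in WT liver. Bcl2l1 had 0.08 in EomesTG and 0.59 in WT liver, the WT value at the threshold of 1.5-fold and under it in 10 of 19 recomputations. Fas had -0.52 in EomesTG liver, which was -0.86 after scaling to the median gene, and 0.27 in WT liver.

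Between single cells of the 2 livers, none of the 10 genes passed 1.5-fold. Bcl2 was 1.25-fold higher in single cells of EomesTG than of WT liver, Fasl 1.23-fold and Bcl2a1d 1.30-fold, and Bcl2l11 was 0.853 of its WT level. Expanded cells differed by 6.27-fold for Bcl2 (log2 ratio 2.65, 2.45 to 2.85) and by 3.82-fold for Bcl2l11 (1.93, 1.60 to 2.28). No other gene of the 10 passed 1.5-fold between expanded cells of EomesTG and WT liver, with Fasl at 0.41, Tnfsf10 at 0.46, Bcl2a1d at 0.36 and Fas at -0.47. The shares of all genes past 1.5-fold were not computed between single or between expanded cells of the 2 livers.

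**Figure D3:**
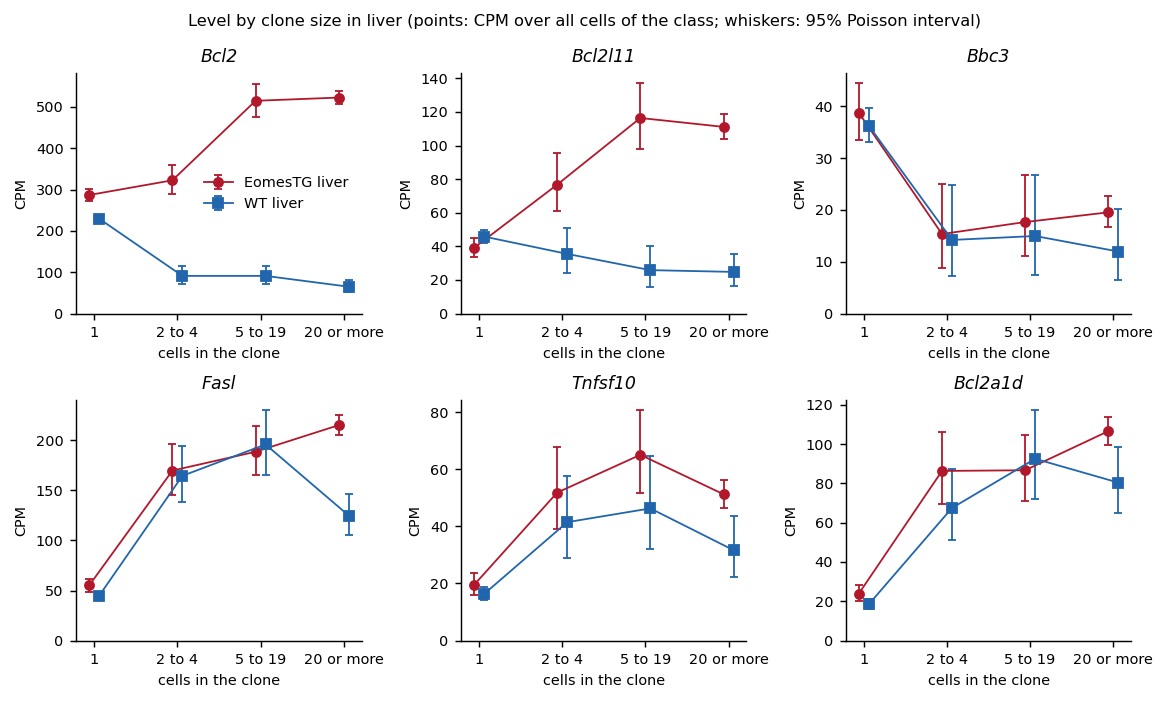
Level of 6 of the genes by clone size in EomesTG (circles) and WT (squares) liver, in UMIs per 1000000 UMIs over all cells of a size class, with the 95% Poisson interval. Bcl2 climbs to 522 CPM in EomesTG clones of 20 or more cells and drops to 65.0 CPM in WT ones, while Fasl is high in all expanded classes of both.

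Across 4 classes of clone size both genes were read again. For clones of 1, 2 to 4, 5 to 19 and at least 20 cells, Bcl2 was at 287, 322, 515 and 522 CPM in EomesTG liver and at 229, 91.2, 91.2 and 65.0 in WT liver. Bcl2l11 was at 39.1, 76.8, 116 and 111 CPM in EomesTG liver and at 45.9, 35.5, 25.9 and 24.8 in WT liver. For Bcl2 the strains were nearest in single cells and farthest apart in the largest class, where it was 8.04-fold higher in EomesTG mice. Fasl was at 55.1, 169.8, 189 and 215 CPM in EomesTG liver and at 44.8, 165, 196 and 125 in WT liver. Its step thus lay between single cells and clones of 2 to 4 cells in both strains. Bbc3 had its step at the same place, downwards, with 38.7, 15.4, 17.7 and 19.5 CPM in EomesTG liver and 36.3, 14.2, 15.0 and 12.0 in WT liver. The largest class held 1870 cells of 19 clones in EomesTG liver but only 159 cells of 2 clones in WT liver.

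The gates were then crossed, since 2000 of the 2369 expanded EomesTG liver cells, but only 91 of the 454 expanded WT liver cells, were Pdcd1-positive. Bcl2 in Pdcd1-positive expanded cells was at 513 CPM in EomesTG and 56.1 in WT liver, and in Pdcd1-zero expanded cells at 430.4 and 88.7. In Pdcd1-positive single cells it was at 257 and 81.6 CPM, and in Pdcd1-zero single cells at 293 and 243. Bcl2 in WT liver was thus low in each gate that was expanded or Pdcd1-positive, and high only where it was neither. Bcl2l11 was at 111 and 16.4 CPM in Pdcd1-positive expanded cells of EomesTG and WT liver, 91.1 and 32.7 in Pdcd1-zero expanded cells, 64.2 and 31.7 in Pdcd1-positive single cells, and 34.1 and 47.2 in Pdcd1-zero single cells. Fasl was at 208 and 99.9, 204 and 176, 138 and 40.8, and 38.5 and 45.2 CPM in the same order.

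Among expanded cells of EomesTG liver, the Pdcd1 gate separated the 10 genes little, though the share of all genes called there was not computed. There 0 of the 10 genes passed 1.5-fold between Pdcd1-positive and Pdcd1-zero cells, with log2 ratios of 0.56 for Bcl2a1d, 0.28 for Bcl2l11, 0.25 for Bcl2 and 0.03 for Fasl. Expanded cells of EomesTG liver held 683 CPM of Pdcd1, and the Pdcd1-zero ones had a median of 3411 UMIs. Many of the latter may therefore be cells whose Pdcd1 transcripts were missed. The comparison cannot show how expanded cells that lack Pdcd1 differ. Among single cells of the same library, Fasl had a ratio of 1.84 (1.49 to 2.19), Bcl2a1d 2.73 and Bcl2l11 0.92, and Bcl2 had -0.19 (-0.40 to 0.02). Among expanded cells of WT liver 3 of the 10 genes passed 1.5-fold, all lower in Pdcd1-positive cells. They were Fasl with -0.82, Bcl2 with -0.66 and Bcl2l11 with -0.99. The Pdcd1-positive side held only 91 cells of 32 clones, and the share of all genes called was not computed there either.

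**Figure D4:**
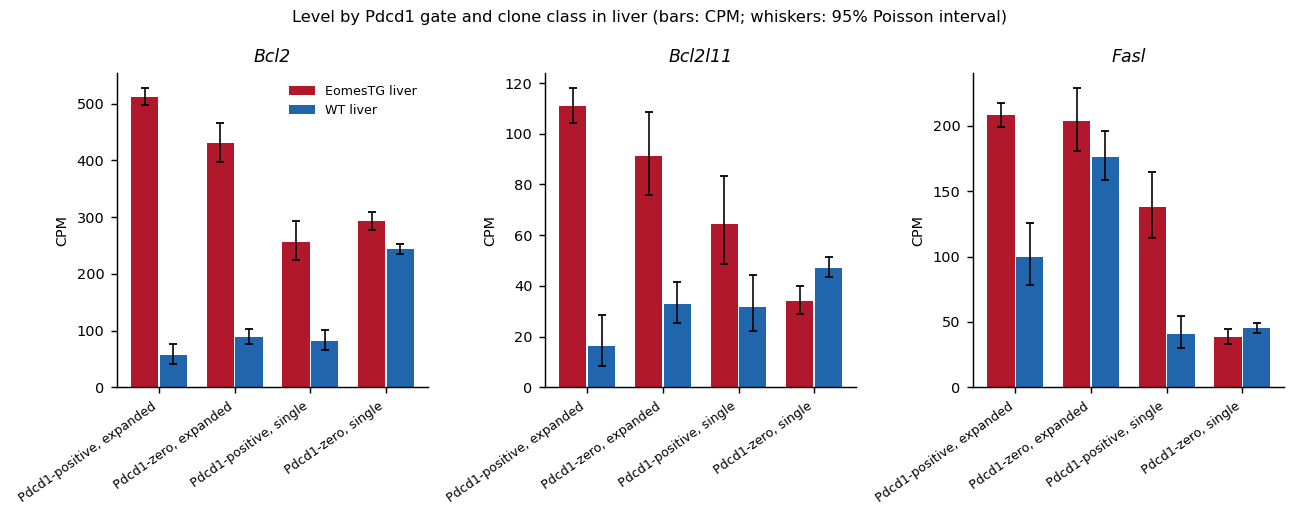
Level of Bcl2, Bcl2l11 and Fasl in EomesTG (left bar) and WT (right bar) liver by Pdcd1 gate and clone class, in UMIs per 1000000 UMIs with the 95% Poisson interval. In EomesTG liver Bcl2 is highest in expanded cells, at 513 and 430.4 CPM, and in WT liver it is highest in Pdcd1-zero single cells, at 243 CPM.

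Single clones were read to see how evenly this held. Clones of at least 10 cells, a minimum chosen after the data were seen, numbered 29 in EomesTG liver (2008 cells) and 6 in WT liver (209 cells). Bcl2 ran from 57.4 to 902 CPM over the EomesTG clones, with a median of 584, and from 0 to 153 over the WT clones, with a median of 98.5. It lay above all 6 WT clones in 28 of the 29 EomesTG clones. Bcl2l11 ran from 32.7 to 282 CPM (median 119) over the EomesTG clones and from 0 to 57.8 (median 0) over the WT clones, and 25 of 29 lay above all 6. Small clones hold few UMIs, so a level of 0 there is a low count and not an absence. Clones of a library are not replicates of a strain. The share of all genes with such a gap between clones was not computed, so these counts are a description.

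At the minimum of 10 cells Fasl had no such gap, with 97.3 to 339.6 CPM (median 214) over the EomesTG clones and 116 to 448 (median 243) over the WT clones. None of the 29 EomesTG clones lay above all 6 WT clones for Fasl, and 8 of 29 did for Bcl2a1d. The picture for Fasl and Bcl2l11 depended on this minimum. With a minimum of 20 cells, Fasl ran from 158 to 339.6 CPM over all 19 EomesTG clones and from 116 to 127 over the 2 WT clones, with no overlap. Bcl2 did not overlap there either, at 186 to 902 and 46.4 to 136 CPM, whereas Bcl2l11 did, at 32.7 to 228 and 16.2 to 57.8 CPM. The 3 largest EomesTG liver clones, of 492, 448 and 233 cells, had 554, 549.5 and 433 CPM of Bcl2, and 119, 137 and 38.7 of Bcl2l11. Bcl2l11 in the third of these clones was below the 57.8 CPM of the highest WT clone, so the gene was not high in every large clone. The 2 largest WT liver clones, of 114 and 45 cells, had 46.4 and 136 CPM of Bcl2 and 16.2 and 57.8 of Bcl2l11.

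A pair of clones, singled out after their values were seen, stood apart from their libraries. An EomesTG liver clone of 17 cells, of which 11.8% were Pdcd1-positive, had 57.4 CPM of Bcl2, the lowest of the 29, with 34.4 CPM of Eomes and 287 of Klrg1, a marker of terminal effector cells. A WT liver clone of 12 cells was Pdcd1-positive in 100% of them, with 721 CPM of Pdcd1, and had 90.1 CPM of Bcl2, 0 of Bcl2l11 and 379 of Fasl. The largest WT spleen clone, of 39 cells, had 21.8 CPM of Bcl2 and 87.1 of Fasl.

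**Figure D5:**
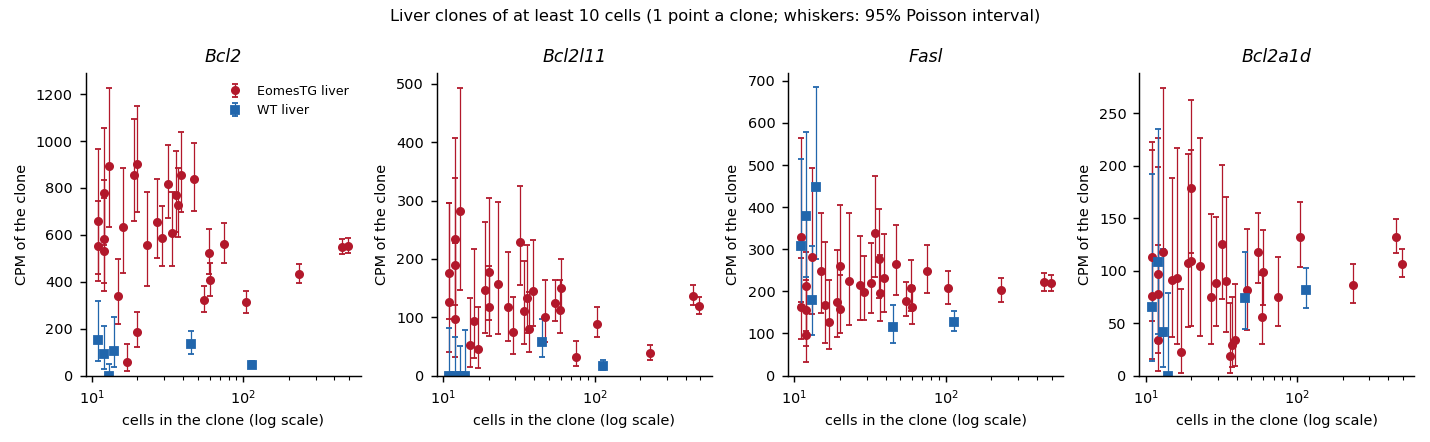
Level of Bcl2, Bcl2l11, Fasl and Bcl2a1d in each liver clone of at least 10 cells, in UMIs per 1000000 UMIs with the 95% Poisson interval, against the number of cells in the clone on a log scale. For Bcl2, 28 of the 29 EomesTG clones (circles) lie above all 6 WT clones (squares), whereas for Fasl the clones of both strains share the range from 116 to 339.6 CPM. The share of all genes with such a gap was not computed.

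In spleen, expanded cells were few. In EomesTG spleen 3 of the 10 genes were higher and 1 lower in them, against 10.5% and 1.83% of 9587 genes, and in WT spleen 5 were higher and 2 lower, against 11.7% and 3.02% of 9713 genes. Fasl was at 43.6 CPM in expanded and 3.11 in single cells of EomesTG spleen, and at 68.1 and 5.89 in WT spleen. Bcl2 was at 187 and 222 CPM in EomesTG spleen (-0.25, -0.57 to 0.05) and at 97.5 and 180.3 in WT spleen (-0.89, -1.27 to -0.53). The WT spleen value rests on its 3 largest clones, without which Bcl2 had -0.29 and was under 1.5-fold.

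Other genes of the pathway were read from 5 lists of 56 genes in all, and up to 3 genes are named for each. Of 11 apoptosome and caspase genes measured, 6 were higher and 1 lower in expanded than in single cells of EomesTG liver, and 3 were higher and 1 lower in WT liver. Over all genes, 28.8% were higher and 7.99% lower in that comparison of EomesTG liver and 19.2% and 6.57% in that of WT liver, so the WT count was near the share of all genes. Between the strains in liver, 4 of these 11 were higher and 0 lower in EomesTG cells, among them Apaf1, the core of the apoptosome, with a log2 ratio of 0.77. Of all genes, 13.6% were higher and 6.79% lower there. Of the other BCL2 family genes measured, 4 of 5 were higher in expanded cells of EomesTG liver and 3 of 6 in WT liver, with 0 lower in either. They included Pmaip1, which encodes the BH3-only protein NOXA, with 0.97 in EomesTG and 0.94 in WT liver, and the pore-forming effector Bak1 with 0.93 and 1.04.

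Of the p53 targets and regulators, 4 of 9 were higher and 0 lower in EomesTG than in WT liver, among them the cell cycle inhibitor Cdkn1a with 1.28 and Phlda3 with 3.14, while Bbc3, a target of the same factor, had -0.26. Of 16 death receptor and adaptor genes, 2 were higher and 3 lower in that comparison, with the tumour necrosis factor receptor Tnfrsf1b at 1.29 and the cytokine Lta at -1.47. Of 8 survival cytokine receptor and FOXO genes, 2 were higher and 2 lower. These counts stand beside 13.6% of all genes higher and 6.79% lower. Il7r, the interleukin 7 receptor that sustains Bcl2 in naive and memory cells, was at 121 CPM in EomesTG and 263 in WT liver (-1.12). In expanded and single cells it was at 11.3 and 309 CPM in EomesTG liver (-4.77) and at 89.1 and 284 in WT liver (-1.67). Il7r was thus lower in expanded cells of both livers. Il2rb, the receptor chain shared by interleukin 2 and interleukin 15, was higher by 0.82 in EomesTG than in WT liver. In expanded over single cells it was higher by 1.35 in EomesTG liver, 0.92 in EomesTG spleen and 0.74 in WT spleen. Whether either receptor bears on the Bcl2 levels was not tested. In expanded cells of WT liver, 0 of the 8 genes were called higher and 1 was called lower.

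In the spleen comparison of strains, 0 of 16 death receptor and adaptor, 11 apoptosome and caspase, 8 p53 and 8 survival genes measured were called. Of 7 other BCL2 family genes, Pmaip1 alone was, with 0.73, at 8.88 CPM in EomesTG and 5.36 in WT spleen. Over all genes, 2.69% were called higher and 4.96% lower there. Of 16 death receptor and adaptor genes, 3 were higher and 3 lower in Pdcd1-positive than in Pdcd1-zero cells of EomesTG liver, against 22.4% and 8.03% of all genes. The TRAIL receptor gene Tnfrsf10b had -3.38 there (-4.77 to -2.22), on the side opposite to its ligand gene Tnfsf10. Its levels were low, at 0.55 CPM in Pdcd1-positive and 5.74 in Pdcd1-zero cells.

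The genes most like each of the 10 were sought over 16 pools of cells, being each library split by Pdcd1 gate and clone class, among 7563 genes. Likeness is Pearson's r of log2(CPM + 1), given as a description, since pools share libraries and depth. Fasl was most like Id2 (0.956), Sytl3 (0.954) and Gzmb (0.954), and Tnfsf10 most like Runx3 (0.966). Bcl2 was most like Fam46c (0.885) and Bcl2l11 most like Cd200r2 (0.918). Among the 10 genes, Fasl and Tnfsf10 had an r of 0.88, Fasl and Bcl2 0.02, and Bcl2 and Bcl2l11 0.57.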

How the data were processed

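The deposited matrices hold UMI counts per gene and barcode. The authors made them with Cell Ranger against mm10, per the submitters' processing notes, from 10x Genomics 5′ libraries, per the labels' protocols; the file headers give software version 3.1.0. The deposited receptor tables hold UMI and read counts per chain, also from the authors' Cell Ranger run.

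Barcodes with at least 500 UMIs, 300 genes and at most 10% mitochondrial UMIs were kept, and those with at least 5 UMIs of 11 markers of other cells, or no Cd3 UMI, were left out. This kept 4505 of 4587, 3114 of 3327, 5719 of 5774 and 5318 of 5415 barcodes in EomesTG liver, WT liver, EomesTG spleen and WT spleen. No doublet caller was run. Cells were neither clustered nor integrated. UMIs were summed per side and divided by the side's total. Clones shared V, J and nucleotide CDR3 of the top TRB and TRA chain. Ratios used genes with at least 50 UMIs over both sides, of 12 comparisons.

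Members, lists and rules were chosen with earlier results of these data known. All 10 genes are named, with at most 3 genes per list and comparison and 3 per gene for likeness. Gene positions are from GENCODE M21 on GRCm38. The intervals were tested on simulated counts. Python 3.11.15, numpy 2.4.6, scipy 1.17.1, pandas 2.3.3 and Biopython 1.88 were used. Alternatives covered scaling, filters, depth, clone definition and subsets. The depth of the libraries was 18938523 to 28727875 UMIs. Some genes of the lists, and a gate that used them, are not reported here.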

Additional observations from a re-analysis of the deposited data

Results flagged for a closer look

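In each case here, a gene lay on opposite sides of equality in paired comparisons. With 1 library a group, no difference was tested over mice. Fasl had a log2 ratio of EomesTG over WT of 1.20 in liver and -1.18 in spleen, Bcl2l11 of 1.01 and -0.30, and Bcl2a1d of 1.30 and -0.51. The Bcl2a1d value in spleen turned to 0.19 (-0.25 to 0.62) among cells with at least 3 Ccl5 UMIs. Its near-identical copy Bcl2a1b had 0.81 in liver and -0.07 (-0.21 to 0.07) in spleen, and how reads were divided between the copies is uncertain. For Pdcd1-positive over Pdcd1-zero cells, Bcl2 had 0.47 in EomesTG liver and -1.53 in WT liver, and Bcl2l11 had 1.05 and -0.63. For expanded over single cells, Bcl2 had 0.81 in EomesTG liver and -1.52 in WT liver, and Bcl2l11 had 1.47 and -0.69.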

How the results depend on the processing

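The limit on all results is 1 library of pooled mice a group. WT liver holds few large clones and spleen few Pdcd1-positive or expanded cells, which limits precision there. No paired analysis over mice was possible because each group has 1 library. Clones were not matched between the liver and spleen of a strain. Over 22 settings, 2049 values of the 10 genes were recomputed, of which 1853 kept their direction and side of the threshold or moved less than their interval, and 5 changed sign after being called. Of 268 counts, 245 stayed within 1.5 times.

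With each clone counted once, 0 of the 10 genes differed between EomesTG and WT liver, with 6 pathway genes there and 12 between liver and spleen of EomesTG mice, and Bbc3 had 0.0764 in expanded over single cells of WT spleen. Without the 3 largest clones, 3 genes were called for expanded cells of WT spleen. Within expanded clones, 0 genes separated Pdcd1-positive from Pdcd1-zero cells in EomesTG liver (Tnfsf10 -0.0938, Bbc3 0.0228) and 3 in WT liver (Bcl2a1b -0.0477, Bcl2a1d -0.110). In EomesTG spleen 0 did and in WT spleen 2 did, but few genes there reached the minimum of 50 UMIs over both sides. It was reached only by Bcl2 in EomesTG spleen (90 UMIs), and by Bcl2 (63) and Bcl2a1b (57) in WT spleen. The rest of the 10 genes were not tested in those spleen cells. Within expanded clones the share of all genes called was not computed, and Pdcd1-zero cells there may still express Pdcd1.

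Among cells with at least 3 Ccl5 UMIs, a setting chosen after seeing the data, 0 of the 10 genes and 3 pathway genes differed between strains in spleen, and 3 of the 10 by Pdcd1 in EomesTG liver. Cells thinned to 2000 UMIs gave 3 genes and 0 pathway genes between strains in spleen, and 3 genes by Pdcd1 in WT liver. They gave 1 by Pdcd1 and 1 by expansion in EomesTG spleen, and 4 by expansion in WT spleen. Thinning leaves fewer UMIs and leaves out cells under 2000 UMIs. A minimum of 200 UMIs gave 3 by Pdcd1 and 2 by expansion in EomesTG spleen, and 6 pathway genes between WT liver and spleen, since fewer genes were eligible. Between strains in spleen, each cell counted alike gave 0 pathway genes, all deposited barcodes 2, and leaving out barcodes with 2 TRB chains 2 of the 10 genes. Apart from the minimum of 200 UMIs, the cause was not tested.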
